A study of Mus musculus with 18 samples.

Results

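GATA6 binding regions that were occupied early after Gata6 induction, that gained pluripotency transcription factors only after induction and that never carried a SOX17 peak are described here. They were chosen by the authors' deposited classes, GATA6 class Early&Constant, PTF class "ectopic", where PTF stands for the pluripotency factors OCT4, SOX2 and ESRRB, and SOX17 class "no SOX17". The rule gave 589 of the 42403 GATA6 regions, which is 4.96% of the 11875 Early&Constant regions, 13.7% of the 4314 Early&Constant regions with ectopic PTF binding and 18.1% of the 3248 Early&Constant regions without SOX17. Because GATA6, SOX17 and PTF binding defined the regions, those signals are given as a description and were not tested.

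The samples are 18 MNase-seq libraries from KH2 cells, a line of mouse embryonic stem (ES) cells (C57BL/6 x 129/Sv), which carry a doxycycline-inducible Gata6 expression cassette. The 6 groups of 3 libraries were untreated cells (d0) and cells exposed to doxycycline (Dox) for 8, 16, 24, 48 and 96 h, and the d0 cells carried the same transgene. MNase signal was not analysed here. The values used come from a deposited table with 1 row per GATA6 region, whose signal columns are the authors' means over replicates of ATAC-seq and ChIP-seq in the same system and in XEN cells, a stem cell line derived from extraembryonic endoderm. A mean column carries no error, so changes between time points were described and not tested. The table does not give the depth of each library behind it.

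GATA6 is a zinc-finger factor that binds GATA motifs and drives the differentiation of the inner cell mass towards primitive endoderm (PrE), in part through its target Sox17. OCT4 and SOX2 maintain the pluripotent state and can bind side by side on a composite OCT4:SOX2 motif, and ESRRB is an orphan nuclear receptor of the same network. Ectopic binding means here that a PTF peak was called at a region after Dox where none was called at d0.

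The sequence under the GATA6 summits was read from GRCm38, the assembly named mm10 in the labels, in windows that reach 100 bp to either side of the summit, on the plus strand. The windows below belong to regions picked by a rule: the 3 with the highest GATA6 motif scores among those eligible for printing, the 3 with the highest OCT4:SOX2 scores among regions that lost GATA6 after Oct4 knockdown, and the region nearest to a gene of the fixed PrE list. Each is named after its nearest protein-coding gene. Capitals mark the best GATA6 motif and the best OCT4:SOX2 motif of the window where there is one, and both strands were searched.
Insm1, chr2:146259167-146259367: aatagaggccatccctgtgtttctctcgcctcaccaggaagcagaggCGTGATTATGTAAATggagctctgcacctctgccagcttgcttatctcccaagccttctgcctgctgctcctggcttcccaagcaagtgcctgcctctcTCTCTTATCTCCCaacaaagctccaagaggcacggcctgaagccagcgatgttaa
Xpo1, chr11:23169873-23170073: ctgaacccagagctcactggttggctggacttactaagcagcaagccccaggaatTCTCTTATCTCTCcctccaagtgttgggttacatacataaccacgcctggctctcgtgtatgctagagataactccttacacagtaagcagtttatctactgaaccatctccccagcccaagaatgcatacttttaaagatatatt
Lyrm1, chr7:119864610-119864810: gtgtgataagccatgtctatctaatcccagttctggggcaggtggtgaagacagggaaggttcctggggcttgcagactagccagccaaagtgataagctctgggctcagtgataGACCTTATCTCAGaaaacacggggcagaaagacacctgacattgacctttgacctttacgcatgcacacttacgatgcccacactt
Fggy, chr4:95386348-95386548: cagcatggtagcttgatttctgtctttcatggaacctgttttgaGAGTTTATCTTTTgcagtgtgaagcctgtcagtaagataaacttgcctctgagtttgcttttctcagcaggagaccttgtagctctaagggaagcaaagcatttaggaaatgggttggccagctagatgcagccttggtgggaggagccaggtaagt
Abca9, chr11:110141736-110141936: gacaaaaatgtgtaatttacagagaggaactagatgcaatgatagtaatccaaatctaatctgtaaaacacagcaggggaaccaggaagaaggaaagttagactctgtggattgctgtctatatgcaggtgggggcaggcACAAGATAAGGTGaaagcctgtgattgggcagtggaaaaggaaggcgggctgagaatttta
Intu, chr3:40528589-40528789: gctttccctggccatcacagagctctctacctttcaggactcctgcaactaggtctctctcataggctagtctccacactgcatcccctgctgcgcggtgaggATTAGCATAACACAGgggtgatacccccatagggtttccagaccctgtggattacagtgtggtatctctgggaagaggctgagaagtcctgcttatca
Krt19, chr11:100161501-100161701: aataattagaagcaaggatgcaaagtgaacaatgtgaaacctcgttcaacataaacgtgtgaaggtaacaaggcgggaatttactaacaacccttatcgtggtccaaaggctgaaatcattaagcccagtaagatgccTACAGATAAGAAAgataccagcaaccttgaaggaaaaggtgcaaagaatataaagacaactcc
In the Insm1 window an OCT4:SOX2 motif with a score of 7.80 lies on the plus strand at -53 to -39 bp from the summit, and a GATA6 motif with a score of 15.2 lies on the minus strand at 46 to 58 bp. The Xpo1, Lyrm1, Fggy, Abca9 and Krt19 windows hold a GATA6 motif and no OCT4:SOX2 motif. The motif shown for Lyrm1 scores 12.4, since the best GATA6 motif of that region lies outside the window. The Intu window holds an OCT4:SOX2 motif at 3 to 17 bp and no GATA6 motif. A match is a description of these letters and not a bound site.

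The GATA6 signal of the 589 regions was highest in the first day and then declined. The median rose from 4.02 normalised reads per kb at 8 h to 4.92 at 16 h, and then fell to 4.56 at 24 h, 3.58 at 48 h and 2.68 at 96 h. XEN cells had a median of 2.02. The highest of the 5 time points was 16 h in 230 regions, 8 h in 138, 24 h in 124, 48 h in 52 and 96 h in 45. From 16 to 96 h the signal dropped more than 2-fold in 258 regions (43.8%), although all 589 are classed as constant. The class rests on the authors' clustering of input-normalised log2 values at every time point. The ratio here used 16 and 96 h only, without input. Its share was 31.9% over all regions, which include the authors' Transient and Late classes. At Early&Constant regions without PTF and SOX17 it was 35.1%, and at those with PTF from d0 and without SOX17 it was 67.7%. The latter class had medians of 7.48 at 8 h, 5.65 at 16 h and 1.80 at 96 h. Ectopic PTF regions with SOX17 behaved differently, with medians of 3.03 at 8 h and 6.45 at 96 h and their maximum at 96 h in 53.2% of regions. Early&Constant regions without PTF and SOX17 had medians of 3.59, 4.44, 3.65, 2.70 and 2.72 at 8, 16, 24, 48 and 96 h and of 3.31 in XEN cells. These were lower than at the ectopic PTF regions without SOX17 from 8 to 48 h, and higher at 96 h and in XEN cells. In bulk ChIP-seq, binding in fewer cells and weaker binding in each cell cannot be told apart.

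OCT4 was the PTF that rose most at these regions, and by the median also over all regions. Its median was 1.63 normalised reads per kb at d0, 1.75 at 8 h and 1.82 at 16 h. It then stood at 3.20 at 24 h, 2.79 at 48 h and 1.69 at 96 h, so that the median was back near that of d0. From d0 to 24 h the signal rose in 578 regions (98.1%) and more than 2-fold in 260 (44.1%), with a median log2 ratio of 0.93. Over all 42403 regions, 69.97% rose and 14.4% rose more than 2-fold, with a median log2 ratio of 0.33. The maximum was at 24 h in 322 regions and at 48 h in 178. SOX2, which pairs with OCT4, had a smaller and earlier rise, from a median of 1.5 at d0 to 2.07 at 16 h and 2.08 at 24 h, before 1.41 at 96 h and 0.82 in XEN cells. ESRRB stood at 1.02 at d0, 1.36 at 16 h, 1.08 at 24 h and 0.72 at 96 h. When the larger of the 24 h and 48 h changes was taken for each factor, OCT4 rose most in 520 regions (88.3%), SOX2 in 47 and ESRRB in 22. A rise of more than 2-fold was seen for OCT4 in 303 regions, for SOX2 in 85 and for ESRRB in 12. These counts were made for the 589 regions only, which were chosen by a new PTF peak after Dox. From d0 to 24 h, median log2 ratios over all regions were 0.33 for OCT4, 0.03 for SOX2 and -0.10 for ESRRB. In that time SOX2 rose more than 2-fold in 10.7% of the 589 and 7.24% of all regions, and ESRRB in 1.53% and 0.547%. The input libraries had medians between 0.69 and 0.89 over the same time points.

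Ectopic PTF regions with SOX17 reached a similar OCT4 median at 24 h (3.11) and kept it at 96 h (3.14), and their SOX2 median rose to 3.56 at 96 h. At regions with PTF from d0 and without SOX17 the OCT4 median was 3.23 at d0, 4.17 at 8 h and 1.26 at 96 h. The OCT4 median of regions without PTF and SOX17 was 1.17 at d0 and 1.81 at 24 h.

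**Figure D1:**
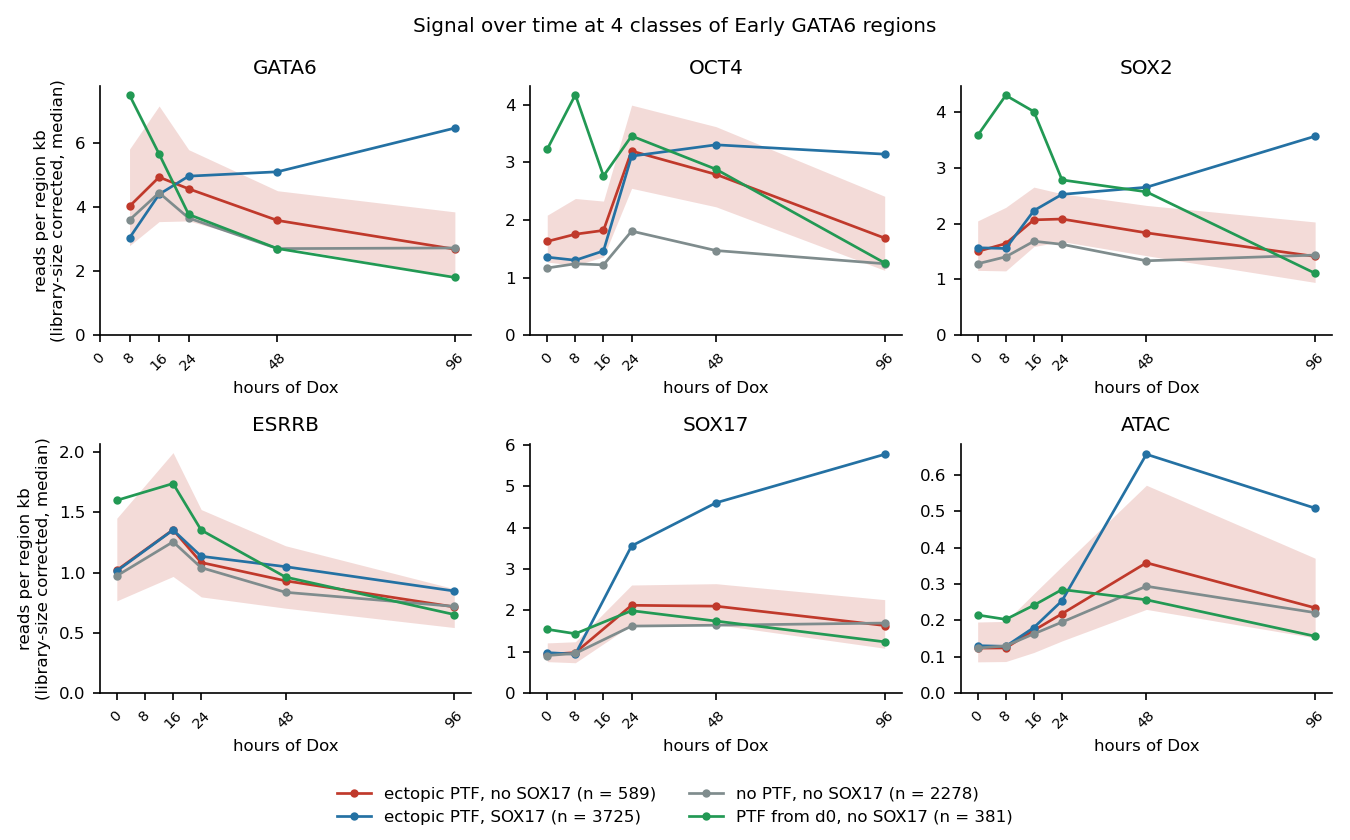
Median normalised reads per kb of region for GATA6, OCT4, SOX2, ESRRB, SOX17 and ATAC-seq against hours of Dox in 4 classes of Early&Constant regions, with the quartiles of the 589 ectopic PTF regions without SOX17 as a shaded band. OCT4 at the 589 regions went from 1.63 at d0 to 3.20 at 24 h and 1.69 at 96 h, while GATA6 and SOX17 rose until 96 h in the class with SOX17.

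The class "no SOX17" did not mean a flat SOX17 signal. SOX17, an SRY-box factor of the endoderm, had a median of 0.94 normalised reads per kb at d0 and 0.98 at 8 h. It was 2.13 at 24 h, 2.10 at 48 h and 1.64 at 96 h, and it rose from d0 to 24 h in 97.6% of the regions, beside 77.6% of all regions. Regions without PTF and SOX17 went from 0.91 to 1.62 over the same day. Ectopic PTF regions with SOX17 had 3.56 at 24 h and 5.77 at 96 h. The distributions of the 2 ectopic PTF classes overlapped at their edge. Taking the highest of the 24, 48 and 96 h values, 20 of the 589 regions (3.40%) lay above the lower quartile of the SOX17-bound class, which was 4.46, and none lay above its median of 6.49. The values of the 589 regions ran from 1.01 to 6.18, and those of the SOX17-bound class began at 1.45.

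Accessibility was low before induction and peaked at 48 h, and the median over all regions peaked at 48 h too. Of the 589 regions, 455 (77.2%, 95% Wilson interval 73.7% to 80.5%) were classed as closed at d0, 124 as moderate and 10 as accessible. Over all 42403 regions 61.3% were closed. The closed share was 77.8% at ectopic PTF regions with SOX17, 77.7% at regions without PTF and SOX17 and 42.5% at regions with PTF from d0 and without SOX17. The difference from the last class was a log2 odds ratio of 2.20 (95% interval 1.79 to 2.60, two-sided Fisher's exact test, adjusted p = 9.29e-27), and its direction was the same on 20 of 20 chromosomes. The first 2 differences did not pass the test (log2 odds ratios -0.05 with an interval of -0.35 to 0.25 and -0.04 with -0.35 to 0.28). Adjusted p-values were computed over the 45 Fisher tables of the study classes. Regions of a class share libraries and can be neighbours, so that intervals and p-values measure the spread among regions and not among cultures.

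ATAC-seq signal had a median of 0.124 normalised reads per kb at d0, 0.125 at 8 h, 0.173 at 16 h and 0.218 at 24 h. It reached 0.358 at 48 h and returned to 0.234 at 96 h and 0.168 in XEN cells. The highest value was at 48 h in 474 of the 589 regions (80.5%), and 48 h exceeded d0 more than 2-fold in 66.9% of them, beside 43.3% of all regions. It was at 48 h in 81.2% of ectopic PTF regions with SOX17, 61.3% without PTF and SOX17 and 41.5% with PTF from d0. The median over all regions was 0.208 at 24 h, 0.303 at 48 h and 0.249 at 96 h. The mean log2 change from d0 to 24 h was 0.65 ± 0.37 (SD over 589 regions, pseudocount 0.01). It was 0.82 ± 0.38 at ectopic PTF regions with SOX17, a difference of -0.17 (95% interval -0.21 to -0.13, n = 589 and n = 3725 regions, linear model with errors clustered by chromosome, adjusted p = 6.63e-08 over 33 models). Regions without PTF and SOX17 gained 0.50 ± 0.38, a difference of 0.15 (0.12 to 0.19, n = 589 and n = 2278, same model, adjusted p = 6.45e-08), and regions with PTF from d0 gained 0.39 ± 0.34, a difference of 0.27 (0.22 to 0.31, adjusted p = 7.39e-10). By 96 h the differences from ectopic PTF regions with SOX17 and from regions with PTF from d0 were wider. That from regions without PTF and SOX17 was smaller. The mean log2 change from d0 was 0.75 ± 0.65 at the 589 regions and 1.70 ± 0.79 at ectopic PTF regions with SOX17, a difference of -0.95 (-1.02 to -0.89, n = 589 and n = 3725, linear model clustered by chromosome, adjusted p = 6.09e-16). It was 0.66 ± 0.66 at regions without PTF and SOX17, a small difference of 0.08 (0.02 to 0.15, n = 589 and n = 2278, adjusted p = 0.0145 in the same model), and -0.37 ± 0.80 at regions with PTF from d0, a difference of 1.12 (1.02 to 1.21, adjusted p = 5.67e-15). These 6 differences kept their direction and passed the test with 2 other pseudocounts, without the regions lowest in signal, in closed regions only and with region width or the d0 signal in the model.

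Histone states at d0, which the authors assigned from public ES cell data, set the regions apart from the other classes without SOX17. The largest state was the one labelled naive, with 204 of 589 regions (34.6%, Wilson interval 30.9% to 38.6%), followed by facultative heterochromatin with 139 (23.6%), primed enhancer with 90 (15.3%), poised enhancer with 51 (8.66%), constitutive heterochromatin with 43 (7.30%), promoter with 39 (6.62%) and active enhancer with 23 (3.90%). Over all 42403 regions the naive share was 17.996% and the active enhancer share 11.2%. None of the 7 shares differed from those of ectopic PTF regions with SOX17 by the two-sided Fisher's exact test, with log2 odds ratios between -0.63 and 0.52. The naive share was 25.6% at regions without PTF and SOX17 (log2 odds ratio 0.62, interval 0.34 to 0.90, two-sided Fisher's exact test, adjusted p = 6.24e-05), and the poised enhancer share was 13.1% there (-0.67, interval -1.12 to -0.22, adjusted p = 0.00829). In closed regions only, the poised enhancer difference did not pass (-0.59, interval -1.22 to 0.05, two-sided Fisher's exact test, adjusted p = 0.178). By the same Fisher's exact test, regions with PTF from d0 differed in 4 states, with 17.8% active enhancers (-2.42, interval -3.13 to -1.71, adjusted p = 4.63e-12), 31.2% primed enhancers (-1.33, interval -1.78 to -0.88, adjusted p = 3.21e-08), 7.35% facultative heterochromatin (1.961, interval 1.34 to 2.58, adjusted p = 5.38e-11) and 21.3% naive (0.97, interval 0.54 to 1.40, adjusted p = 2.98e-05). In closed regions only, the naive and active enhancer differences from this class turned (log2 odds ratios -0.03 and 1.33) and did not pass, while those of primed enhancers and facultative heterochromatin still passed.

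**Figure D2:**
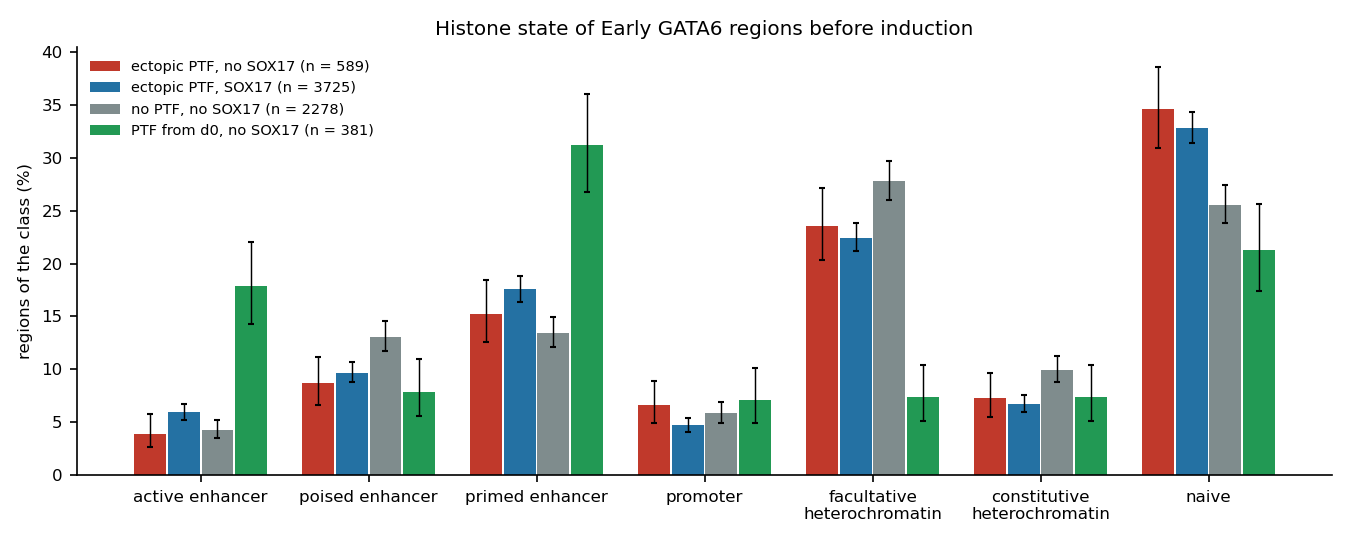
Share of regions in each of 7 histone states at d0 for 4 classes of Early&Constant regions, in percent of the class, with 95% Wilson intervals. The naive state holds 34.6% of the ectopic PTF regions without SOX17 and 32.9%, 25.6% and 21.3% of the other classes.

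Most summits held a GATA6 motif, while the shares of summits with OCT4:SOX2, SOX17 or ESRRB motifs were close to or below those of nearby sequence. The deposited motif scores come from the JASPAR matrices for GATA6, OCT4:SOX2, SOX17 and ESRRB. The SOX17 matrix scores highest on CCCATTGTC, and the other matrices are longer than 10 letters. A GATA6 motif lay in 531 of 589 summit windows (90.2%, Wilson interval 87.5% to 92.3%) and in 36.6% of 1128 control windows centred 3 kb away. An OCT4:SOX2 motif lay in 255 windows (43.3%, 39.3% to 47.3%), beside 39.98% (37.2% to 42.9%) of control windows. A SOX17 motif lay in 134 windows (22.8%, 19.5% to 26.3%), beside 28.5% (26.0% to 31.3%) of controls, and an ESRRB motif in 79 (13.4%), beside 13.4% of controls. Over all 42403 summit windows the shares were 77.1% for GATA6, 41.8% for OCT4:SOX2, 43.1% for SOX17 and 14.9% for ESRRB. Neither an OCT4:SOX2 nor an ESRRB motif was found in 281 of the 589 windows (47.7%), beside 49.6% of all summit windows, and in 62 regions (10.5%) the whole region had neither, beside 20.4% of all regions. GATA6 and OCT4:SOX2 motifs stood together in 231 windows. They overlapped in 35 of these, lay a median of 47.5 bp apart in the rest, and had the same strand in 109 (47.2%, beside 47.8% over all regions). The median distance of the best motif from the summit was 44 bp for GATA6, 150 bp for OCT4:SOX2, 153 bp for ESRRB and 173 bp for SOX17.

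**Figure D3:**
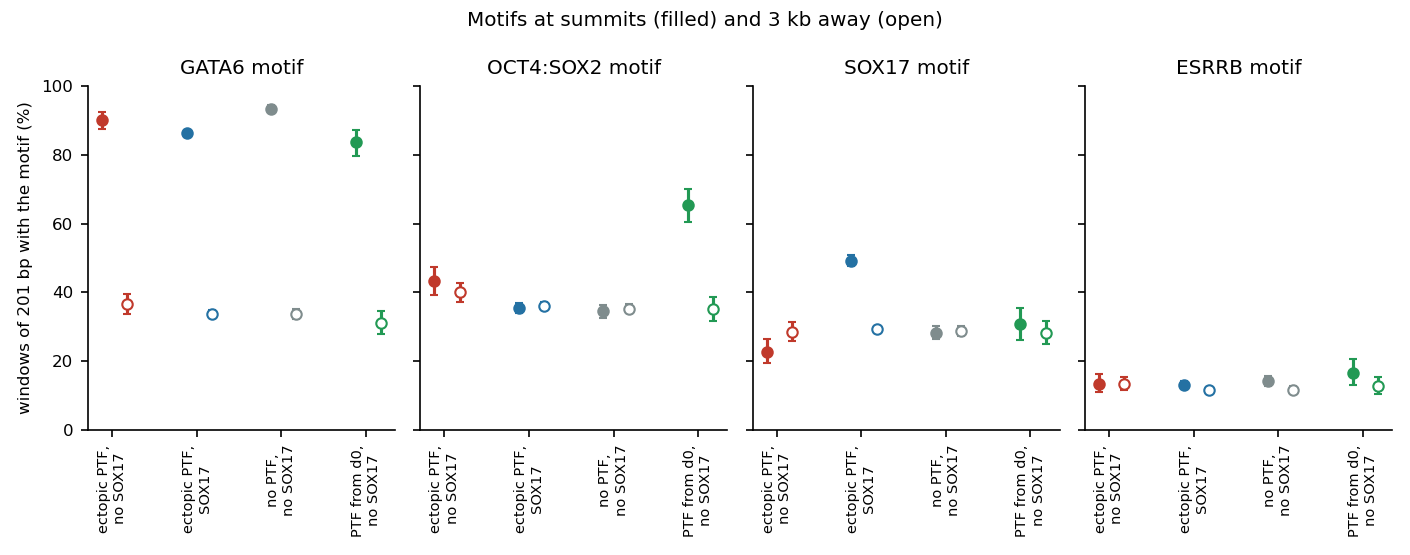
Share of windows, 100 bp to either side of the centre, with each of 4 motifs, in percent, at summits (filled points) and 3 kb away (open points) for 4 classes of Early&Constant regions, with 95% Wilson intervals. At ectopic PTF regions without SOX17 the summit share exceeds the control share for GATA6 (90.2% against 36.6%), is 43.3% against 39.98% for OCT4:SOX2, and is 22.8% against 28.5% for SOX17.

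Motif content differed from that of some other classes, depending on the motif. Over whole regions, whose median width was 638 bp against 834 bp with SOX17, 485 bp without PTF and SOX17 and 885 bp with PTF from d0, a SOX17 motif was found in 369 of the 589 regions (62.6%) and in 84.0% of ectopic PTF regions with SOX17 (log2 odds ratio -1.65, interval -1.92 to -1.38, two-sided Fisher's exact test, adjusted p = 8.33e-29, 20 of 20 chromosomes). In summit windows these shares were 22.8% and 49.2%. Best SOX17 scores averaged 9.43 ± 1.58 against 10.1 ± 1.60 (n = 369 and n = 3130, difference -0.67, interval -0.85 to -0.48, linear model clustered by chromosome, adjusted p = 9.48e-07). The score differences from regions without PTF and SOX17 and from those with PTF from d0 were 0.002 and -0.001 and did not pass. An OCT4:SOX2 motif was found in 483 regions (82.0%), in 83.5% of ectopic PTF regions with SOX17 (-0.15, interval -0.48 to 0.17, two-sided Fisher's exact test, adjusted p = 0.621), in 65.0% of regions without PTF and SOX17 (1.297, interval 0.97 to 1.62, adjusted p = 1.88e-15) and in 93.2% of regions with PTF from d0 (-1.58, interval -2.23 to -0.93, adjusted p = 1.99e-06). In summit windows the OCT4:SOX2 shares were 43.3%, 35.4%, 34.5% and 65.4% in the same order, and the first difference was then 0.48 (adjusted p = 0.00094, Fisher's exact test). The density of OCT4:SOX2 motifs was 2.97 ± 2.48 per kb (SD, n = 589), above the 2.46 ± 1.98 with SOX17 (difference 0.51, interval 0.30 to 0.72, linear model clustered by chromosome, adjusted p = 0.000128) and the 2.31 ± 2.39 without PTF and SOX17 (0.66, interval 0.42 to 0.89, adjusted p = 2.13e-05), and below the 3.66 ± 2.42 with PTF from d0 (-0.69, interval -1.03 to -0.36, adjusted p = 0.000714).

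Best OCT4:SOX2 scores averaged 8.52 ± 2.48, against 10.6 ± 3.11 at regions with PTF from d0 (n = 483 and n = 355, difference -2.06, interval -2.51 to -1.60, linear model clustered by chromosome, adjusted p = 6.63e-08). The difference from ectopic PTF regions with SOX17 was 0.07 (-0.21 to 0.35, n = 483 and n = 3111, adjusted p = 0.668) and that from regions without PTF and SOX17 was 0.42 (0.13 to 0.71, adjusted p = 0.0117). GATA6 motifs were found in 567 regions (96.3%), in 96.7%, 97.6% and 95.3% of the other classes, and no difference passed the two-sided Fisher's exact test (log2 odds ratios -0.17, -0.65 and 0.35). Within bins of region width all 3 passed, with values of 0.91, -1.40 and 1.52. The density of GATA6 motifs was 5.09 ± 2.81 per kb (SD, n = 589), against 4.13 ± 2.34 with SOX17 (difference 0.95, interval 0.71 to 1.20, linear model clustered by chromosome, adjusted p = 3.89e-07), 6.30 ± 3.76 without PTF and SOX17 (-1.21, interval -1.51 to -0.91, adjusted p = 2.25e-07) and 3.86 ± 2.01 with PTF from d0 (1.23, interval 0.99 to 1.46, adjusted p = 7.38e-09). Best GATA6 scores averaged 11.4 ± 2.36 (SD, n = 567), above the 11.0 ± 2.28 with SOX17 (0.39, interval 0.18 to 0.59, adjusted p = 0.00154 in the same model), while the differences from the other 2 classes did not pass (-0.13 and 0.21). ESRRB motifs were found in 38.5% of the regions, against 46.4%, 32.6% and 51.7%, and all 3 differences were lost within bins of region width.

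GATA6 binding after Oct4 knockdown was called decreased at more of these regions than at the ectopic PTF regions with SOX17 or the regions without PTF and SOX17. In a companion experiment cells received Oct4 or control siRNA together with Dox, and the authors compared GATA6 binding at 48 h with DESeq2. They called 139 of the 589 regions decreased (23.6%, Wilson interval 20.3% to 27.2%) and 3 increased (0.509%, 0.173% to 1.49%), where over all 42403 regions 6.25% were called decreased and 8.57% increased. The decreased share was 10.8% at ectopic PTF regions with SOX17 (log2 odds ratio 1.36, interval 1.04 to 1.67, two-sided Fisher's exact test, adjusted p = 5.54e-15) and 4.52% at regions without PTF and SOX17 (2.71, interval 2.31 to 3.10, adjusted p = 1.33e-38), and both differences had the same direction on 20 of 20 chromosomes. Regions with PTF from d0 had a share of 23.6% as well, and the log2 odds ratio was -0.00 with an interval of -0.44 to 0.44. The increased share was 9.53% with SOX17 (-4.36, interval -6.01 to -2.72, two-sided Fisher's exact test, adjusted p = 9.27e-19), 1.45% without PTF and SOX17 (adjusted p = 0.175) and 0.787% with PTF from d0 (adjusted p = 0.811). A call depends on the signal of a region, and within 10 bins of the control GATA6 signal the first 2 decreased differences were 1.999 (adjusted p = 1.18e-27) and 1.72 (n = 589, adjusted p = 6.34e-14) by the Mantel-Haenszel test.

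The shift was not limited to the called regions. The median GATA6 signal of the 589 regions was 6.86 normalised reads per kb with control siRNA and 4.998 with Oct4 siRNA, and the median log2 ratio was -0.46, beside -0.00 over all regions. Medians were 0.00 at ectopic PTF regions with SOX17, -0.12 without PTF and SOX17 and -0.52 with PTF from d0. The signal was lower with Oct4 siRNA in all but 15.6% of the 589 regions. SOX17 signal was higher with Oct4 siRNA over all regions, with a median log2 ratio of 0.57. The rise was smaller at the 589 regions, with 0.31. Medians were 0.60 at ectopic PTF regions with SOX17, 0.56 without PTF and SOX17 and 0.34 with PTF from d0. Among the 589 regions the median was -0.01 in those called decreased and 0.40 in unchanged ones.

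**Figure D4:**
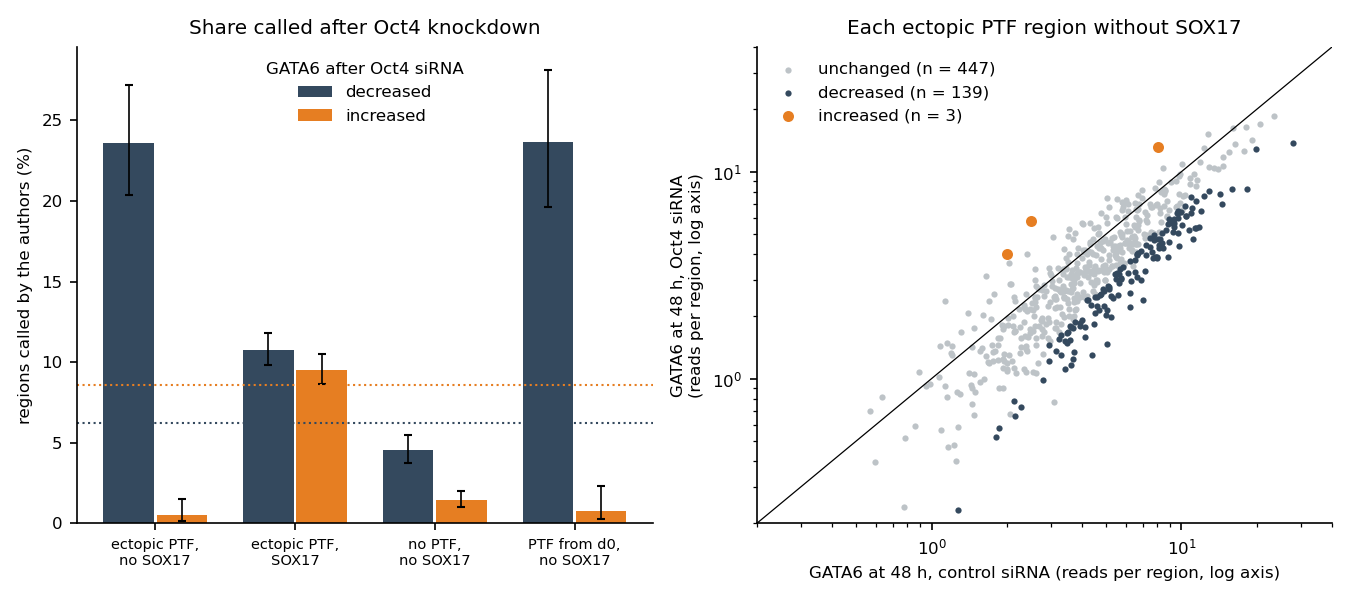
Left, share of regions called decreased or increased for GATA6 after Oct4 siRNA in 4 classes of Early&Constant regions, in percent with 95% Wilson intervals, and dotted lines at the shares over all regions (6.25% and 8.57%). Right, GATA6 signal at 48 h with Oct4 siRNA against control siRNA for each of the 589 ectopic PTF regions without SOX17 on log axes, with the line of equality, where 139 decreased regions lie below and 3 increased regions above the bulk.

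Within the 589 regions, those called decreased had motif content close to that of the others. An OCT4:SOX2 motif lay in the summit window of 65 of 139 decreased regions (46.8%) and of 189 of 447 unchanged ones (42.3%). The mean best OCT4:SOX2 score was 8.59 in the first and 8.49 in the second, and the best GATA6 score 11.7 and 11.2. Seen from the motif, 25.5% (Wilson interval 20.5% to 31.2%) of regions with an OCT4:SOX2 motif at the summit and 22.2% (18.03% to 26.9%) of those without one were called decreased. The median OCT4 signal at 48 h was 2.86 normalised reads per kb in decreased and 2.75 in unchanged regions. The median control GATA6 signal was 6.26 reads per region in decreased and 3.82 in unchanged ones, but this signal entered the call itself. With Oct4 siRNA the medians were 3.25 and 3.27. In the time course, GATA6 was 3.92 and 3.44 reads per kb at 48 h and 2.03 and 2.89 at 96 h. Across the 589 regions the log2 change of GATA6 with Oct4 siRNA had a Spearman correlation of 0.49 with the log2 change of OCT4 signal from 24 to 96 h, of 0.38 with that of GATA6 from 16 to 96 h, of -0.20 with the OCT4 rise from d0 to 24 h and of -0.04 with the best OCT4:SOX2 score. Only 483 of the 589 regions have an OCT4:SOX2 score. The changes of GATA6 from 16 to 96 h and of OCT4 from 24 to 96 h had a correlation of 0.70. These correlations run over regions of the same libraries, with region width and base composition shared by both axes.

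The histone state went with the knockdown call. Of the facultative heterochromatin regions 44 of 139 were decreased (31.7%, Wilson interval 24.5% to 39.8%), of the naive regions 60 of 204 (29.4%, 23.6% to 35.9985%) and of the constitutive heterochromatin regions 12 of 43 (27.9%, 16.7% to 42.7%). The share was 9 of 51 at poised enhancers (17.6%), 10 of 90 at primed enhancers (11.1%, 6.15% to 19.3%), 3 of 39 at promoters (7.69%) and 1 of 23 at active enhancers (4.35%). By accessibility, 124 of 455 closed regions (27.3%, 23.4% to 31.5%), 15 of 124 moderate ones (12.1%, 7.47% to 19.002%) and 0 of 10 accessible ones were decreased. The median log2 change of OCT4 from d0 to 24 h was 1.12 in facultative heterochromatin, 1.001 in naive regions, 0.86 at poised enhancers, 0.78 at primed enhancers, 0.74 in constitutive heterochromatin, 0.61 at promoters and 0.57 at active enhancers. OCT4:SOX2 motifs lay in 52.9% of naive and 17.9% of promoter windows, and the median GC content of those windows was 41.3% and 51.2%. These subgroups were described without a test.

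**Figure D5:**
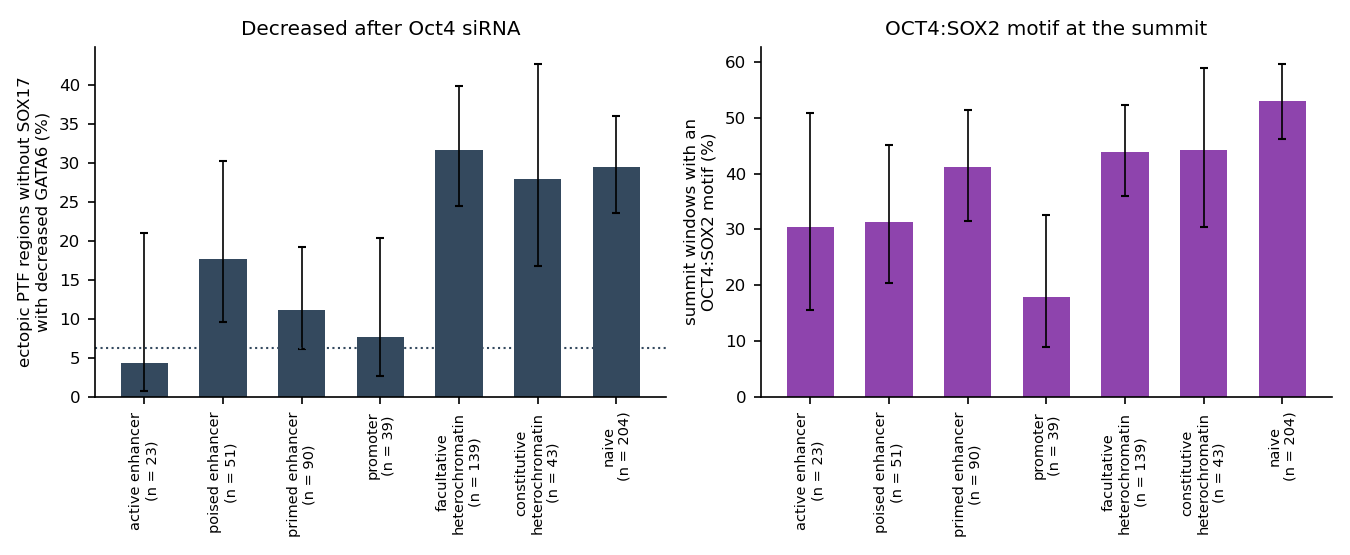
Ectopic PTF regions without SOX17 by histone state at d0, with the share called decreased for GATA6 after Oct4 siRNA on the left (dotted line at 6.25%, the share over all regions) and the share of summit windows with an OCT4:SOX2 motif on the right, in percent with 95% Wilson intervals. The decreased share is 31.7% in facultative heterochromatin and 4.35% at active enhancers.

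The 5 decreased regions with the best OCT4:SOX2 scores had these sites, written on the strand of the motif. The matrix scores highest on CTTTGTTATGCAAAT.
Fggy: CTTTGTGATGGTAAT
Abca9: CATTCAAATGCAAAC
Intu: CTGTGTTATGCTAAT
Herc3: CTTTGCTATGCTAAT
Vwa3b: GTTTGTGATGCAAAC
Their scores were 15.4, 15.1, 15.0, 14.5 and 14.4, and their centres lay at 149, -194, 10, -45 and -186 bp from the GATA6 summit. The Fggy region (chr4:95386085-95386603) is intergenic, 171059 bp upstream of the gene start, and was a primed enhancer of moderate accessibility. GATA6 there was 4.85 normalised reads per region with control siRNA and 2.70 with Oct4 siRNA, and OCT4 went from 0.89 at d0 to 1.56 at 24 h and 0.49 at 96 h. The Abca9 region (chr11:110141414-110142056) lies in an intron of Abca9, which encodes an ABC transporter, in closed facultative heterochromatin. Its GATA6 signal was 3.24 with control siRNA and 1.55 with Oct4 siRNA. OCT4 at Abca9 went from 1.48 at d0 to 2.01 at 24 h and 0.46 at 96 h. The Intu region (chr3:40528155-40528948), 2597 bp upstream of a gene needed for cilia formation, had 4.88 and 2.24. Its OCT4 signal was 2.14 at d0, 4.81 at 24 h and 0.63 at 96 h, the largest of these swings. The Herc3 region (chr6:58825987-58826600) lies 5092 bp upstream of the start of a HECT-type ubiquitin ligase gene, and GATA6 was 4.99 and 2.03. The Vwa3b region (chr1:37013303-37014076) was a poised enhancer with 8.17 and 4.41. In the time course, all 5 had less GATA6 at 96 h, between 0.52 and 1.91, than at 8 h, between 1.97 and 6.53. Over that span GATA6 rose in only 192 of the 589 regions (32.6%), beside 49.7% of all regions.

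Only 3 regions were called increased, and the OCT4:SOX2 sites of 2 of them were as follows.
Ccdc6: TTTAGATATGGAAAA
Vapa: CATTCTAATTCTGGG
Their scores were 9.07 and 6.49. The region nearest to Ccdc6 (chr10:69923800-69924976, in an intron of the ankyrin gene Ank3) had GATA6 signals of 8.05 normalised reads per region with control siRNA and 13.2 with Oct4 siRNA, and the one in an intron of Vapa (chr17:65608469-65609134) had 2.002 and 4.02. Their GATA6 signal at 96 h (8.24 and 2.70) was above that at 8 h (3.69 and 2.02), as in 32.6% of the 589 regions and 49.7% of all regions. Their SOX17 signal was higher with Oct4 siRNA as well, at 7.60 against 3.32 and at 1.31 against 0.51 reads per region. It was higher in 82.0% of all regions.

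The 6 highest GATA6 scores, 15.2, then 15.1 in 3 regions and 15.0 in 2, belonged to regions nearest to Insm1, Xpo1, Erg, Lyrm1, B430305J03Rik and Olfr543. On the strand of the motif, Insm1 had GGGAGATAAGAGA, Xpo1, Erg and Lyrm1 had GAGAGATAAGAGA, and B430305J03Rik and Olfr543 had AGGAGATAAGAGA. The motif centre lay at 52 bp from the summit at Insm1 and -39 bp at Xpo1, but at 300 bp at Erg and -490 bp at Lyrm1. One of the 6, the B430305J03Rik region, was called decreased after Oct4 knockdown, and the other 5 were unchanged.

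The shares of these regions near genes of the fixed lists had Wilson intervals that included the shares over all regions. Within 100 kb of the start of 1 of 36 PrE genes there were 3 regions (0.509%, Wilson interval 0.173% to 1.49%), beside 1.38% of Early&Constant regions and 0.967% of all regions. They were near Dab2 (87005 bp), an endocytic adaptor of PrE cells, Hspg2 (96352 bp), which encodes the basement membrane proteoglycan perlecan, and Krt19 (12936 bp), a simple epithelial keratin. Of ectopic PTF regions with SOX17, 1.9597% lay near a gene of this list. A single region (0.170%, interval 0.030% to 0.955%) lay near a pluripotency gene, Dppa3 (96331 bp), beside 0.467% of all regions. A single one (0.170%) lay near a gene of visceral and parietal endoderm, Ttr (34980 bp), which encodes transthyretin, beside 0.295% of all regions. None lay near the 18 genes of FGF and ERK signalling or the 16 genes of other lineages (interval 0% to 0.648% each). The shares of all regions were 0.333% and 0.189%. The lists were not tested. The Krt19 region (chr11:100161238-100161993) had GATA6 values of 4.99, 5.97, 4.97, 2.73 and 1.15 reads per region at 8, 16, 24, 48 and 96 h. OCT4 there was 1.79 at d0, 3.58 at 24 h and 0.86 at 96 h although the region has no OCT4:SOX2 motif. The Ttr region on chromosome 18 had GATA6 values of 1.04, 0.93, 1.67, 1.53 and 1.07, with no decline from 8 to 96 h, and OCT4 rose from 0.48 at d0 to 1.76 at 48 h.

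The 589 regions were spread over 542 nearest protein-coding genes, 44 of which were nearest to at least 2. The largest group, of 4, surrounded Fgf10, a fibroblast growth factor gene, between 23426 and 100307 bp from its start. All 4 were closed and naive at d0, and 2 of them were called decreased. Summits lay in introns at 50.4%, between genes at 42.3% and in exons at 7.30%, and 70 (11.9%) were within 1 kb of a transcript start, against 10.9%, 12.8% and 10.5% in the other classes (log2 odds ratios 0.14, -0.12 and 0.20, none passing the two-sided Fisher's exact test). The nearest SOX17-bound region lay within 10 kb for 30.9% of the regions, beside 44.5% of ectopic PTF regions with SOX17 and 28.7% of regions without PTF and SOX17.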

How the data were processed

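The series comprises MNase-seq libraries, and no column of the deposited table carries an MNase value, so none was analysed. Of 105 columns in 42403 rows, 81 and the chromosome name were used. Left out were 12 columns that group motif values and 11 columns of sample values, 7 of public histone data and 4 that hold a single library. Of those used, 48 columns are the authors' means of ATAC-seq and ChIP-seq.

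According to the study's methods, the authors aligned reads with Bowtie2 to mm10, called peaks with MACS2 on merged replicates that were also found in each replicate, and counted reads per region corrected for library size. These deposited signal values are not divided by width. Deposited motif scores are FIMO match scores, and deposited motif numbers are hits per region. Values per kb were computed here by dividing by region width, and ratios of ChIP-seq signal with a pseudocount of 0.1.

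The members, gene lists and tests were chosen with earlier results of these data known. Named regions were the nearest to a list gene within 100 kb (up to 30, of which 2 existed, Krt19 and Ttr), the 6 with the highest GATA6 scores, and those regions called decreased or increased with the highest OCT4:SOX2 scores (up to 5 of each). The Fgf10 group was chosen after its values were seen. Classes were compared with two-sided Fisher's exact tests and with linear models with errors clustered by chromosome, each family adjusted by Benjamini-Hochberg. Motif matrices recovered from the deposited scores returned the deposited presence of each motif in 589 of 589 regions. Wilson intervals cover counting error among regions only. Scripts used Python 3.11.15, scipy 1.17.1, statsmodels 0.14.6 and pysam 0.24.0 and were tested on simulated data. Genes are from GENCODE M21. The windows printed overlap no annotated UTR, and 1 chromosome was left out of the sequences. One region that the rule names is not reported here.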

Additional observations from a re-analysis of the deposited data

How the results depend on the processing

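No paired analysis was possible because no column carries a value of an MNase library or of a replicate, and for the same reason there is no replicate block and no fit without 1 replicate. Of 270 alternative values for 60 results, 206 kept their direction and their side of the threshold, 35 changed direction, 16 no longer passed, 11 newly passed and 2 were counts that moved. The causes were not tested. Values are log2 odds ratios for shares and differences for scores. X stands for ectopic PTF regions with SOX17, Y for regions without PTF and SOX17, and Z for regions with PTF from d0 and without SOX17.

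Within 10 bins of region width, GATA6 motif presence was 0.91 (X), -1.40 (Y) and 1.52 (Z), SOX17 -0.10 (Y) and -0.23 (Z), OCT4:SOX2 0.34 (X), and ESRRB -0.048 (X), 0.023 (Y) and -0.25 (Z). The closed share was 0.26 (Y), the decreased share 0.35 (Z), and 1 of 7 histone states passed (X). In summit windows, GATA6 presence was 0.55 (X), -0.63 (Y) and 0.83 (Z), SOX17 -0.42 (Y), OCT4:SOX2 0.48 (X), and ESRRB 0.039 (X), -0.088 (Y) and -0.35 (Z). With only best motifs within 100 bp of the summit, GATA6 was 0.78 (X), -0.63 (Y) and 0.78 (Z), SOX17 -0.52 (Y) and -0.39 (Z), OCT4:SOX2 0.73 (X) and 0.26 (Y), and ESRRB 0.16 (X), -0.15 (Y) and -0.42 (Z).

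In closed regions only, the poised enhancer share was -0.59 (Y, no longer passing), the active enhancer share 1.33 (Z), the naive share -0.026 (Z), the increased share 0.84 (Z), ESRRB presence 0.35 (Y) and -0.49 (Z), the promoter share -0.081 (X), the GATA6 score -0.13 (Z) and the SOX17 score 0.21 (Z), and 2 of 7 states passed (Z). The restriction of motif scores and ATAC signal to closed regions was chosen after seeing the data, as were the bins of control GATA6 signal, the d0 signal as a term and width in the model of motif density. Counting moderate with closed regions gave 0.085 (X) and 0.62 (Y), leaving out promoter summits 0.058 (X, closed share), a 2 kb promoter -0.0063 (Z), and comparing within chromosomes 0.031 (Z, decreased share).

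With the mean score of all motifs, GATA6 was -0.35 (Y) and 0.19 (Z), SOX17 -0.10 (Y) and 0.10 (Z), OCT4:SOX2 0.12 (Y) and ESRRB 0.30 (Y). With region width in the model, GATA6 was -0.35 (Y) and 0.81 (Z), SOX17 -0.080 (Y) and 0.13 (Z), OCT4:SOX2 0.31 (Y), ESRRB 0.43 (Y) and 0.066 (Z), and ATAC signal at d0 0.035 (X) and -0.10 (Y). In summit windows, the SOX17 score was -0.27 (Y) and 0.054 (Z), OCT4:SOX2 0.49 (X) and ESRRB 0.51 (Y).

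Signals are means over replicates, without the depth of each library in the table, so no error between cultures can be given.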
